A study of Mus musculus with 2 samples.

Results

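CXCR3 and CXCR6 are chemokine receptors of lymphocytes, and the genes described here are these receptors (Cxcr3, ENSMUSG00000050232; Cxcr6, ENSMUSG00000048521) with ligands of each (Cxcl9, ENSMUSG00000029417; Cxcl10, ENSMUSG00000034855; Cxcl16, ENSMUSG00000018920). They were taken by symbol, which gave 5 genes of 31055 in the feature table, each symbol matching 1 feature. The data are droplet single-cell RNA counts of CD45+ cells, that is leukocytes, from 2 mosaic subcutaneous tumours of untreated FVB mice, labelled replicate 1 and replicate 3 of a single group. Each was grown from injected cells of 2 squamous carcinoma lines together, the YFP-labelled line CIT6 and the RFP-labelled line CIT9. Sections were marked with light-printed DNA codes (ZipSeq) over regions rich in YFP, rich in RFP or mixed, broken up with collagenase (types I and IV), and sorted before 10x 3' v3 libraries were made. The labels give 1 group only, so the comparisons below are between cell classes, macrophage states and code ratios within the same tumours. Whether the 2 tumours grew in different mice is not stated in the labels, and p-values therefore measure only the spread between these 2 samples over all classes of a fit.

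CXCR3 and CXCR6 couple to inhibitory G proteins and steer T cells and NK cells along gradients of their ligands. CXCL9 and CXCL10 are small secreted chemokines whose genes are textbook targets of interferon: Cxcl9 mainly of interferon gamma, Cxcl10 of both interferon classes and of NF-kappaB. CXCL16 differs from them in being made as a transmembrane protein with a mucin-like stalk, which ADAM10 or ADAM17 can shed, and it also serves as a scavenger receptor for oxidised lipoprotein on macrophages. In tumours, CXCL9 from macrophages and dendritic cells is known for drawing in CXCR3+ T cells, and CXCL16 for sustaining CXCR6+ effector T cells next to dendritic cells. CXCR6 is also a common mark of tissue-resident T cells.

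In the GRCm38 annotation the genes lie at chr5:92321347-92328079 (Cxcl9, minus strand, 4 exons), chr5:92346638-92348889 (Cxcl10, minus strand), chr11:70453983-70459984 (Cxcl16, minus strand), chrX:101731535-101734269 (Cxcr3, minus strand) and chr9:123806475-123811760 (Cxcr6, plus strand). Cxcl9 and Cxcl10 are neighbours, with 18558 bases between them. Cxcl10 lies within Art3 and Cxcr6 within Fyco1, each on the opposite strand, and Cxcl16 overlaps Zmynd15 on the opposite strand by 552 bases. Art3 itself was at 0.403 and 0.414 CPM in macrophages of replicates 1 and 3 (CPM, counts per 1000000 gene counts of a class, where the counts are unique molecular identifiers, or UMIs, each standing for a captured RNA molecule). Since Cxcl9 and Cxcl10 differed in the macrophage states below, the 250 bases before their transcription starts are shown, from RefSeq on GRCm38.p6, as chr5:92328080-92328329 and chr5:92348890-92349139, each on the minus strand and read 5′ to 3′. Capitals mark matches to an interferon-element-like motif, GAAANNGAA, or to the kappaB motif, searched on both strands.
Cxcl9: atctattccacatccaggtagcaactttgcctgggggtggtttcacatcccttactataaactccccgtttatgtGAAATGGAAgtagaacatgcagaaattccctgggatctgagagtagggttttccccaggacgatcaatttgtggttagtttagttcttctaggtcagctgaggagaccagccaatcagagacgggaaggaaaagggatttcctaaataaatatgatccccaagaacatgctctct
Cxcl10: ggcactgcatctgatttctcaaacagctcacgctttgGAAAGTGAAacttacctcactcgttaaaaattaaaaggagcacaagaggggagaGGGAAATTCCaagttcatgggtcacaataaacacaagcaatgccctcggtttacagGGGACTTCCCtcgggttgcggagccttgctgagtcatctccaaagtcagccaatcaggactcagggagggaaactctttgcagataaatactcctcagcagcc

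The Cxcl9 window held 1 interferon-element-like match, GAAATGGAA, and no kappaB match. The Cxcl10 window held GAAAGTGAA further upstream and 2 kappaB matches, GGGAAATTCC and GGGACTTCCC, which do not overlap it. Of 32851 promoters of the same length, 7.13% held GAAANNGAA, 7.02% held the motif TTCNNNGAA, which neither window has, and 3.9% held the kappaB motif. The promoter windows of Cxcr3 and Cxcr6 held no match to these letters. RefSeq promoters were matched for 4 of the 5 genes (not Cxcl16), and a match is a description of letters, not a binding site.

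Cells were barcodes of 1000 or more gene UMIs and 500 or more genes, with mitochondrial UMIs no more than 10%, which gave 4818 cells in replicate 1 and 6734 in replicate 3, with median depths of 16798 and 21346 UMIs. Marker genes placed 4190 (87%) and 5777 (85.8%) of them into classes. Macrophages were the largest class in both tumours (2837 and 3208 cells, 58.9% and 47.6%), and most other classes were unequal between them: 387 and 29 neutrophils, 151 and 527 monocytes, 35 and 231 CD8 T cells, 201 and 186 regulatory T cells, 95 and 201 NK cells, 11 and 157 plasmacytoid dendritic cells (pDCs). Conventional dendritic cells (cDCs) were few, at 14 and 35 cDC1, 67 and 81 cDC2 and 15 and 20 activated DCs. The libraries shared 9 cell barcodes, against 4.78 if barcodes were drawn independently. Levels are given as CPM of a class, with exact Poisson 95% intervals that cover counting error only.

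Cxcl9 was carried by mononuclear phagocytes, and macrophages, monocytes and C1q-low phagocytes each had more of it in replicate 3 than in replicate 1. In macrophages it stood at 112 CPM (109 to 115) in replicate 1 and 224 (221 to 228) in replicate 3, in monocytes at 56.5 (45.9 to 68.8) and 317 (304 to 331), and in C1q-low phagocytes, which carry macrophage genes with little complement C1q, at 16.5 and 76.5. The ratio of replicate 3 to replicate 1 was 2 (1.95 to 2.06) in macrophages and 5.62 (4.59 to 6.94) in monocytes. Dendritic cells lay below macrophages in each tumour, with 54 and 82.6 CPM in cDC1, 42.7 and 107 in cDC2, and 32.6 and 144 in activated DCs. T and NK classes were near 0, with 3.16 and 5.87 CPM in regulatory T cells and 1.57 and 5.53 in NK cells. CD8 T cells of replicate 3 were the exception among lymphocytes at 31.1 CPM, from 75 UMIs, against 0 UMIs in replicate 1. That level was uneven, at 95.7 CPM in the 36 cells with Cxcl10 and 15.45 in the 195 without.

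Ordered by the mean of both tumours, Cxcl9 ran from monocytes (187 ± 184, SD, n = 2) and macrophages (168 ± 79.4) down to T cells with NK markers (0.867 ± 1.23), and every neighbour in that order overlapped the next in its range over the tumours. Macrophages held 86.8% and 69.9% of all Cxcl9 UMIs in cells of replicates 1 and 3. These came from few cells: with every macrophage thinned to 5000 UMIs, the top 5% of macrophages by Cxcl9 held 98% and 76.8% of its UMIs, and up to 63 and 102 UMIs in 1 cell.

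Cxcl10 had the same main source but a wider spread over classes. It was at 92.5 CPM (90 to 95) and 169 (166 to 171) in macrophages and at 57.5 and 116 in C1q-low phagocytes. Monocytes had 73 (60.9 to 86.8) and 342 (329 to 356). Their value in replicate 1 is 128 UMIs in 11 of 151 cells, with 73 UMIs in 1 cell and 93% in 5 cells. cDC2 had 18.1 and 82.8 CPM, whereas cDC1 had 0 UMIs in replicate 1, which allows up to 6.74 CPM, and 7.59 CPM (3.28 to 15) in replicate 3. pDCs were as low, with 0 and 2.14 CPM. Neutrophils were at 26.6 CPM in replicate 1 and 546 in replicate 3, but the latter value rests on 58 UMIs in 29 cells, 40 of them in 1 cell. Macrophages held 81% and 63.5% of the Cxcl10 UMIs, and the top 5% of thinned macrophages held 92.1% and 76.4% of those.

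Lymphocytes also had Cxcl10, most of all regulatory T cells, at 110 CPM (89.6 to 133) and 101 (85.8 to 118). The ratio of replicate 3 to replicate 1 was 0.921 (0.714 to 1.19) in regulatory T cells and 1.82 (1.77 to 1.88) in macrophages. CD8 T cells had 42.6 and 39.8 CPM, conventional CD4 T cells 5.38 and 44.8, and NK cells 11.8 and 71.9. In replicate 1 the CD8 value is 11 UMIs in 1 of 35 cells, and the NK value 15 UMIs in 3 of 95 cells. Of regulatory T cells, 25 of 201 and 52 of 186 carried Cxcl10, with up to 21 and 14 UMIs in 1 cell. RNA free in the suspension, read from barcodes of 10 to 100 UMIs, held 1.41 and 1.72 Cxcl10 UMIs per Cxcl9 UMI, while regulatory T cells held 34.7 (104 against 3 UMIs) and 17.2 (155 against 9). Taking all Lyz2, a phagocyte lysozyme gene, in regulatory T cells as free RNA would account for 2.73 and 6.8 CPM of Cxcl10. Lyz2 was at 145 and 266 CPM in regulatory T cells with Cxcl10 and at 205 and 323 CPM in those without, and C1qa at 64.3 and 66.4 against 64.3 and 101. The 10 macrophage markers summed to 589 and 617 CPM in regulatory T cells, with 0 of them at 0 in either tumour, and to 49620 and 37240 CPM in macrophages. In NK cells of replicate 3, those with Cxcl10 (50 of 201) had 1039 CPM of Lyz2 and those without had 305. Lyz2 moved with Cxcl10 in these cells, and its part in the result was not tested. NK cells held 7.5 (15 against 2 UMIs) and 13 (182 against 14) Cxcl10 UMIs per Cxcl9 UMI. CD8 T cells of replicate 3 held 1.28 (96 against 75 UMIs), under the 1.72 of free RNA. Those with Cxcl10 (36 of 231) had 576 CPM of Lyz2, and those without had 460. The part of phagocyte RNA in CD8 T cells was not tested.

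Cxcl16 was the ligand found in nearly every macrophage. It stood at 742 CPM (735 to 749) and 647 (642 to 652) in macrophages, and at 867 (747 to 1001) and 790 (706 to 881) in activated DCs, which are the migratory, Ccr7-expressing cells. C1q-low phagocytes had 431 and 557 CPM, monocytes 238 and 407, cDC1 288 and 315, and cDC2 260 and 352. In order of mean level, activated DCs (828 ± 54.7, SD, n = 2), macrophages (694 ± 67.5) and C1q-low phagocytes (494 ± 89.1) did not overlap each other over the tumours, whereas monocytes, cDC2 and cDC1 did. Neutrophils (30.2 and 56.5 CPM) and all lymphoid classes (at most 55.3 CPM) were low. Free RNA itself carried 417 and 476 CPM of Cxcl16, and the free-RNA share read from Lyz2 would give 26.9 CPM in NK cells of replicate 3, where 55.3 CPM was measured.

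**Figure D1:**
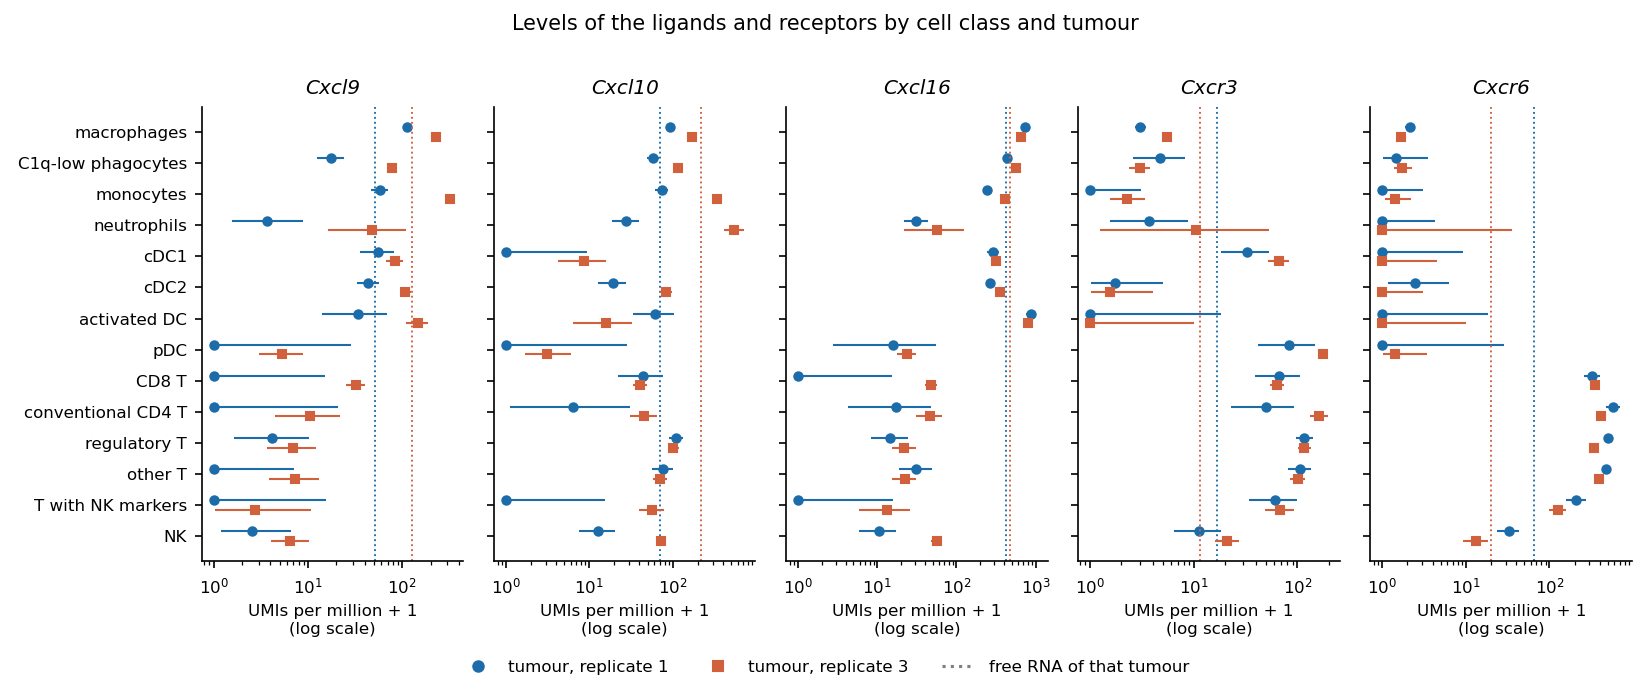
Level of each gene (CPM + 1, log scale) in 14 cell classes, with a circle for the tumour of replicate 1 and a square for that of replicate 3. Bars are exact Poisson 95% intervals and dotted lines the level in free RNA of each tumour; Cxcl16 in macrophages sits at 742 and 647, Cxcr6 in regulatory T cells at 501 and 336.

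The ligands differed in how they were spread over macrophages. At 5000 UMIs a cell, Cxcl16 was found in 95.5% and 94.6% of macrophages, with a median of 3 UMIs in each tumour, and its top 5% of cells held only 13.3% of its UMIs in either. Cxcl9 was found in 6.04% and 16.6% and Cxcl10 in 8.3% and 18.5%. Both Cxcl9 and Cxcl10 were found in 1.54% and 4.83% of macrophages, against 0.501% and 3.08% if they were independent. Among macrophages with Cxcl9, 25.4% and 29% had Cxcl10, against 7.2% and 16.4% of those without. Across cells the rank correlation of Cxcl9 with Cxcl10 was 0.163 and 0.129, and that of either with Cxcl16 at most 0.0972, over 2734 and 3149 cells of 1 library each, which share depth.

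To compare shares of cells across classes of unequal depth, each cell was thinned to 2000 UMIs, which left out 30 and 22 macrophages and 98 and 0 neutrophils. Cxcl16 was then found in 76.1% and 71.1% of macrophages, 73.3% and 63.2% of activated DCs, 27.2% and 42.7% of monocytes, and 50% and 37.1% of cDC1. Among CD8 T cells Cxcl16 was found in 0% (0 of 33, which allows up to 9.09%) and 5.19%. Its level in CD8 T cells of replicate 3 was 46.8 CPM (38.6 to 56.3), against at most 23.7 CPM from free RNA by Lyz2. Without thinning, 99.3% of macrophages of replicate 1 had it, at a median of 19153 UMIs, and 0% of its CD8 T cells at 6252. Cxcl9 was found in 4.42% and 12.6% of macrophages and Cxcl10 in 5.49% and 12.1%. Regulatory T cells had Cxcl10 in 9.28% and 13.4% of cells, a difference from macrophages that was not tested, and Cxcl9 in 0% (0 of 194, which allows up to 1.55%) and 2.79%.

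**Figure D2:**
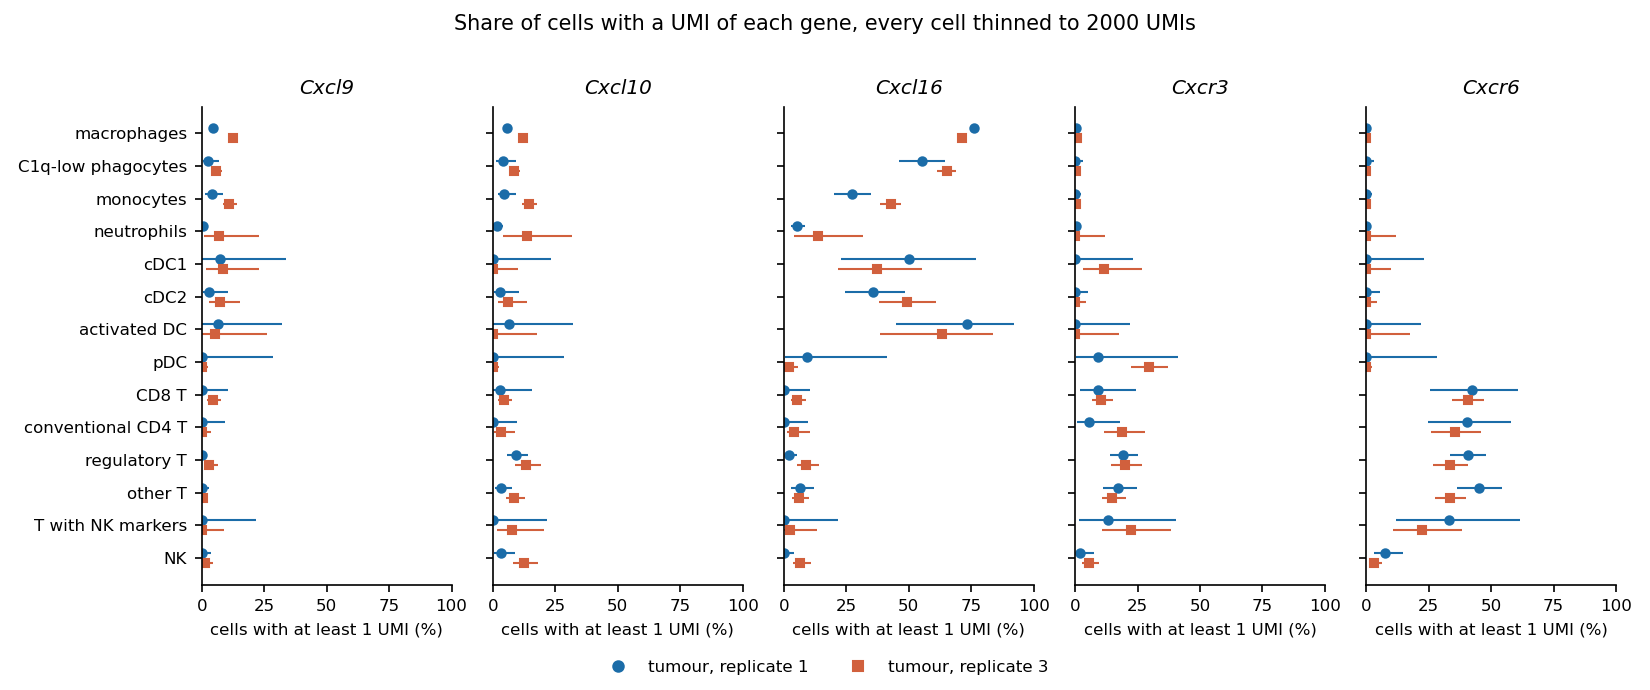
Share of cells with at least 1 UMI of each gene (%), every cell thinned to 2000 UMIs, by class and tumour, with exact binomial 95% intervals. Cxcl16 is the ligand found in most macrophages (76.1% and 71.1%), and Cxcr6 is found in 33.5% to 42.4% of CD8 and regulatory T cells.

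Of 6 tests of Cxcl9 and Cxcl10 in dendritic cells against macrophages, 3 passed, all lower in dendritic cells: both ligands in cDC1 and Cxcl9 in cDC2. The test was edgeR's quasi-likelihood test on UMI sums of each class and tumour, with cDC1, activated DCs and pDCs in a second fit that admitted smaller classes, with the tumour as a block and Benjamini-Hochberg adjustment over all genes. In cDC1, Cxcl10 was lower than in macrophages by a log2 fold change of -4.83 ± 0.938 (SE; adjusted p = 4.12e-04) and Cxcl9 by -1.40 ± 0.402 (adjusted p = 0.0133). In cDC2, Cxcl9 was lower by -1.35 ± 0.368 (adjusted p = 0.0144), while Cxcl10 had -1.56 ± 0.541 (adjusted p = 0.0538). The Cxcl9 calls in cDC1 and cDC2 were lost without the tumour block (adjusted p = 0.462 and 0.544), with DESeq2 (0.270 and 0.348) and after free RNA was subtracted (0.071 and 0.084), and over all alternatives the adjusted p ran from 1.2e-06 to 0.462 in cDC1 and from 7.09e-08 to 0.544 in cDC2. In activated DCs neither passed, with -1.07 ± 0.434 for Cxcl9 and -2.11 ± 0.833 for Cxcl10, and neither did Cxcl16 at 0.31 ± 0.413 (adjusted p = 0.656). Cxcl16 in cDC1 (-1.15 ± 0.420) and cDC2 (-1.24 ± 0.428) lay just above the threshold, with adjusted p of 0.0521 and 0.0535. Of all genes tested, 20.8% passed in cDC1, 17.1% in cDC2 and 21.7% in activated DCs, where 3 of 4, 1 of 3 and 0 of 3 of the genes described here did, leaving out those with at most 3 UMIs in the class.

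Between monocytes, which can mature into macrophages, and macrophages no difference passed for Cxcl9 (-0.28 ± 0.338, adjusted p = 0.627) or Cxcl10 (0.37 ± 0.480, adjusted p = 0.660). Their single-tumour differences had opposite signs, -1.10 and 0.50 for Cxcl9 and -0.45 and 1.02 for Cxcl10 in replicates 1 and 3. The Cxcl10 value of replicate 1 rests on 11 of 151 monocytes. Cxcl16 had -1.24 ± 0.426 (adjusted p = 0.0540), lower in both tumours (-1.75 and -0.67), and passed the threshold in 5 of 10 alternatives. The background in this comparison was 15.9% of genes called, and 1 of the 4 genes with a value passed: Cxcr3, at 9 UMIs in all monocytes against 527 in macrophages (-1.86 ± 0.587, adjusted p = 0.0383), a call lost without the block (adjusted p = 0.145), under the stricter gate (0.0503) and after free RNA was subtracted (0.123). Neutrophils were lower than macrophages in Cxcl9 (-3.47 ± 0.670, adjusted p = 3.72e-04) and Cxcl16 (-3.57 ± 0.560, adjusted p = 4.71e-05), and Cxcl10 had 0.47 ± 0.587 (adjusted p = 0.553). There 43.7% of all genes were called. The Cxcl9 difference of neutrophils rests on 3 UMIs in replicate 1 (2.66 CPM) and 5 UMIs in replicate 3 (47.1 CPM, 15.3 to 110).

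Cxcr3 was found on lymphocytes, pDCs and cDC1. Among T classes it stood at 116 CPM (95.3 to 140) and 116 (99.6 to 134) in regulatory T cells, 65.9 (38.4 to 106) and 62.6 (53 to 73.4) in CD8 T cells, and 48.4 (22.1 to 91.8) and 162 (132 to 196) in conventional CD4 T cells. NK cells were lower, at 10.2 (5.45 to 17.5) and 20.2 (15 to 26.5). pDCs, the interferon-producing dendritic cells, had 81.4 (40.6 to 146) and 175 (158 to 193), and cDC1, the cross-presenting dendritic cells, 31.5 (17.2 to 52.8) and 65.5 (51 to 82.9). cDC2 had 1 UMI in each tumour and activated DCs 0 in both, which allows up to 14 CPM in replicate 1 and 7.33 in replicate 3. Macrophages had 2.05 and 4.47 CPM, above the 0.276 and 0.423 CPM that free RNA would give if all their Cd3e were free RNA.

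The order of mean Cxcr3 levels was pDCs (128 ± 66.1, SD, n = 2), regulatory T cells (116 ± 0.0195), conventional CD4 T cells (105 ± 80) and other T cells (102 ± 2.99), each overlapping the next, then CD8 T cells (64.2 ± 2.31), T cells with NK markers (63.5 ± 5.81) and cDC1 (48.5 ± 24.1), and apart from these NK cells (15.2 ± 7.01). T classes together held 42.3% and 33.9% of all Cxcr3 UMIs in cells, and macrophages, by their number, 22.7% and 22.2%. The share of pDCs went from 2.14% in replicate 1, with 11 pDCs, to 22.2% in replicate 3, with 157. At 2000 UMIs a cell, Cxcr3 was found in 19.1% and 20.1% of regulatory T cells, 9.09% and 10.4% of CD8 T cells, 9.09% and 29.5% of pDCs, and 0.534% and 0.91% of macrophages. Unthinned, it was found in 54.5% and 80.3% of pDCs, at median depths of 13038 and 14708 UMIs, and in 3.7% and 9.76% of macrophages, at 19153 and 24703.

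Cxcr6 was a T cell gene in these tumours. Conventional CD4 T cells had 580 CPM (476 to 701) and 417 (368 to 471), regulatory T cells 501 (457 to 548) and 336 (308 to 367), and CD8 T cells 326 (260 to 403) and 350 (326 to 374). Gamma delta T cells had 97.4 CPM in 9 cells of replicate 1 and 257 in 39 cells of replicate 3, and T cells with NK markers 210 and 126. NK cells had 31.5 (22.5 to 42.9) and 12.2 (8.32 to 17.4). Activated DCs, cDC1 and neutrophils had 0 UMIs in both tumours. Macrophages had 1.12 and 0.665 CPM, and free RNA at their Cd3e level would give 1.12 and 0.773.

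T classes held 65% and 78.1% of all Cxcr6 UMIs. At 2000 UMIs a cell, Cxcr6 was found in 42.4% and 40.7% of CD8 T cells, 40.7% and 33.5% of regulatory T cells, 40.5% and 35.4% of conventional CD4 T cells, 7.45% and 3% of NK cells, and 0.0713% and 0.0628% of macrophages. For Cxcr6 the ratio of replicate 3 to replicate 1 was 0.672 (0.592 to 0.762) in regulatory T cells. It was 0.389 (0.235 to 0.638) in NK cells and 1.07 (0.857 to 1.36) in CD8 T cells. These intervals cover counting error only, and a difference between the tumours was not tested. Cxcr3 in regulatory T cells had a ratio of 1 (0.784 to 1.28). In single T cells at 2000 UMIs, both receptors were found in 4.81% and 5.05% of cells, against 6.76% and 5.32% if they were independent, over 416 and 812 cells. Cells with Cxcr3 had Cxcr6 in 29.4% and 33.3% of cases, and cells without it in 43.7% and 35.4%.

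CD8 T cells were higher than NK cells in both receptors: Cxcr6 by 4.15 ± 0.383 (log2, adjusted p = 2.42e-06) and Cxcr3 by 1.93 ± 0.388 (adjusted p = 6.13e-03), where 3.62% of all genes were called. The direction was the same in each tumour (3.27 and 4.88 for Cxcr6, 2.57 and 1.69 for Cxcr3), and the Cxcr6 call held in 10 of 10 alternatives. The Cxcr3 call was lost after free RNA was subtracted (adjusted p = 0.139). The 7 T cell markers summed to 1664 and 1550 CPM in NK cells, against 5641 and 7002 in CD8 T cells, with 1 and 0 of them at 0 in NK cells, and their part in the result was not tested. Under a stricter gate Cxcr6 in NK cells was 20.3 and 2.91 CPM.

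In the T cell comparisons run, CD8 and regulatory against conventional CD4 T cells, no difference passed. CD8 against conventional CD4 T cells had -0.90 ± 0.371 for Cxcr3 (adjusted p = 0.441) and -0.40 ± 0.322 for Cxcr6 (adjusted p = 0.763), and 0.468% of all genes were called. Regulatory against conventional CD4 T cells had -0.11 ± 0.340 for Cxcr3, -0.40 ± 0.316 for Cxcr6 and 1.97 ± 0.797 for Cxcl10 (adjusted p = 0.265), with 2.32% of genes called. That Cxcl10 value rests on 1 and 28 UMIs in conventional CD4 T cells. It was called only with no filter on low counts (adjusted p = 2.07e-06, over a range up to 0.761). For Cxcr3 the tumours had opposite signs in each comparison. The values were 0.47 and -1.27 for CD8 and 1.09 and -0.57 for regulatory T cells in replicates 1 and 3. Conventional CD4 T cells of replicate 1 had 9 UMIs of Cxcr3. Against macrophages, CD8 T cells differed in all 5 genes, with 39% of all genes called: Cxcl9 -3.46 ± 0.487, Cxcl10 -2.13 ± 0.654, Cxcl16 -4.50 ± 0.544, Cxcr3 4.17 ± 0.340 and Cxcr6 8.62 ± 0.424. The Cxcl10 difference was lost with DESeq2 (adjusted p = 0.124) and without the block (0.236).

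pDCs had Cxcr3 without Cxcr6. Against CD8 T cells, Cxcr3 was higher by 1.16 ± 0.345 (adjusted p = 0.0138), but the difference was 0.13 in replicate 1, where only 11 pDCs were found, and 1.42 in replicate 3, and the call was lost without the block (0.142), with DESeq2 (0.179) and after free RNA was subtracted (0.218). Among cells with at most 5% mitochondrial UMIs, Cxcr3 in pDCs was 38.2 and 110 CPM. Cxcr6 was at 0 UMIs and 1 UMI in pDCs, against 84 and 843 in CD8 T cells. Cxcl9 (-2.84 ± 0.752) and Cxcl10 (-4.56 ± 1.24) were also lower than in CD8 T cells, with 3 of 4 genes called and 26.5% of all genes. These ligand calls too were lost without the block (adjusted p = 0.236 and 0.0752), and that of Cxcl10 also after free RNA was subtracted (0.0569). Cxcl9 had 0 UMIs in both classes of replicate 1, so its difference rests on replicate 3 alone. cDC1 stood out among conventional DCs by Cxcr3, higher than in macrophages by 4.08 ± 0.365 (adjusted p = 1.53e-08), a call kept in 9 of 9 alternatives.

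**Figure D3:**
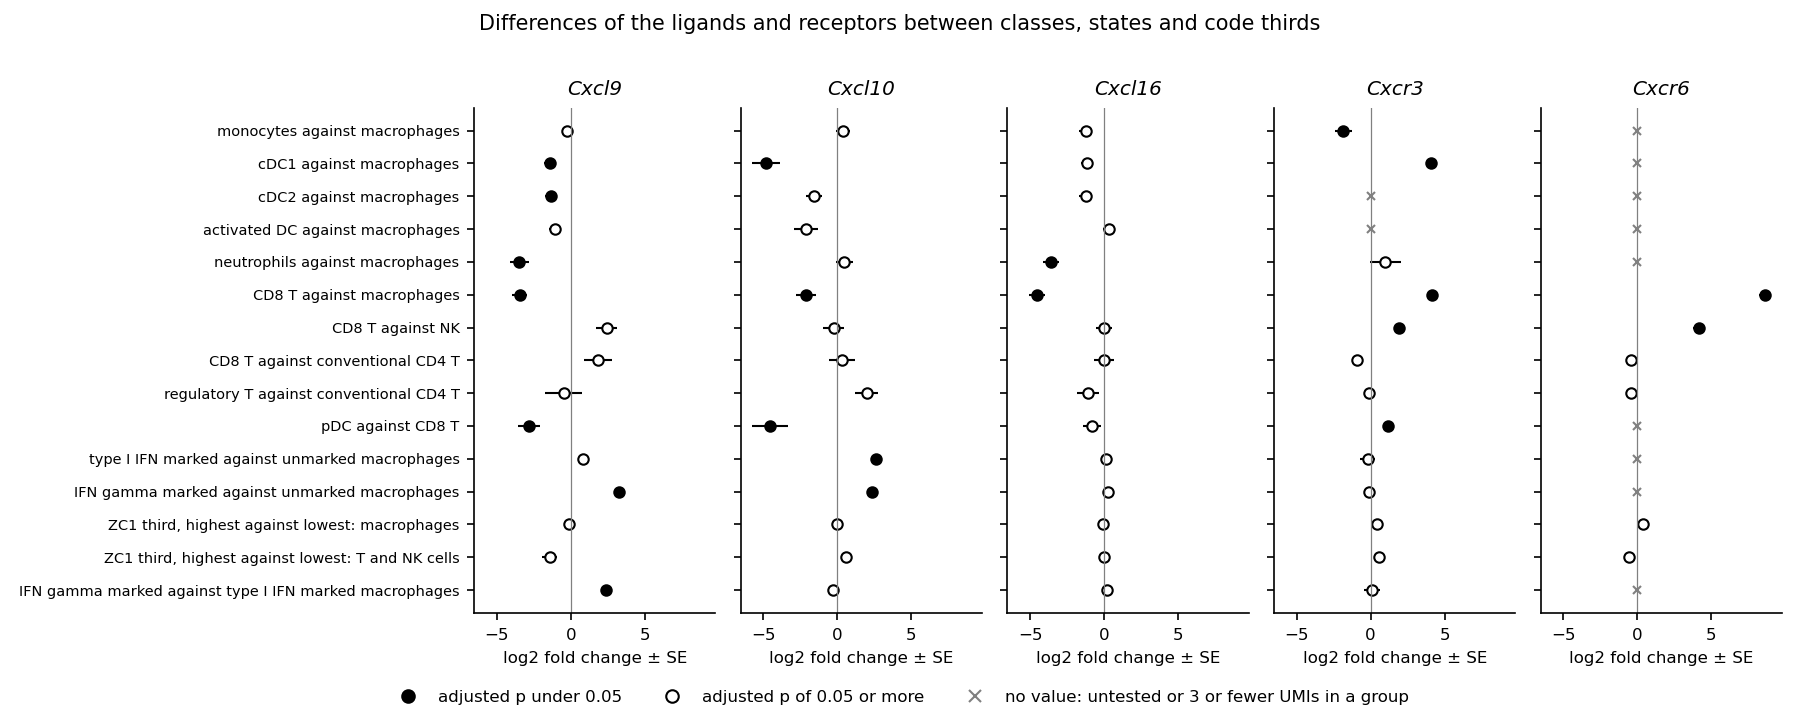
Log2 fold change with its standard error for each gene in each comparison, from edgeR's fits; filled points have an adjusted p under 0.05 and crosses mark genes without a value. Cxcr6 has the highest value, 8.62, in CD8 T cells against macrophages.

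Interferon-marked macrophages carried the 2 CXCR3 ligands in different proportions. Macrophages were thinned to 5000 UMIs and called marked when at least 3 UMIs from at least 2 genes of a list were present: the list of type I interferon genes (Ifit1, Ifit2, Ifit3, Rsad2, Mx1, Isg15, Cmpk2) or that of interferon gamma genes (Gbp2b, Gbp2, Gbp5, Iigp1, Igtp, Tgtp1, Il18bp). In replicate 1, 2446 macrophages were unmarked, 82 type I marked, 160 gamma marked and 46 marked by both; in replicate 3 the numbers were 2635, 68, 378 and 68. The gamma-marked share was 5.85% and 12%. The marking genes were not tested, and none of the 5 genes described here is among them.

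Cxcl9 was at its highest level in gamma-marked macrophages. It was at 57.8 and 134 CPM in unmarked macrophages of replicates 1 and 3, 64.7 and 276 in type I marked ones, 760 and 830 in gamma-marked ones and 623 and 766 in those marked by both. In both tumours the gamma-marked level lay above the unmarked and type I levels. Without thinning, Cxcl9 was found in 32.5% and 56.35% of gamma-marked macrophages, and in 7.81% and 24.25% of unmarked ones. Of type I marked ones 3.66% and 35.3% had it, and the level in replicate 1 rests on 109 UMIs in 3.66% of 82 cells. Gamma-marked cells exceeded unmarked ones by 3.23 ± 0.297 (log2, adjusted p = 2.40e-05), with 3.74 in replicate 1 and 2.69 in replicate 3, and 4.86% of all genes were called. Type I marked cells had 0.83 ± 0.299 over unmarked ones (adjusted p = 0.228). The direct contrast of gamma-marked with type I marked cells was added after these levels were seen. It gave 2.40 ± 0.309 (adjusted p = 5.22e-04), with 3.49 in replicate 1 and 1.62 in replicate 3. In that contrast 2.68% of genes were called. Gamma-marked macrophages held 42.5% and 40.4% of all macrophage Cxcl9 UMIs, and unmarked ones 45.8% and 50.5%.

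Cxcl10 was high in either state, and its measured level was highest in cells marked by both. Those were 46 and 68 cells and were not tested against another state for any ligand. Over all macrophages, 5 cells held 18.3% and 11.6% of the Cxcl10 UMIs. Its level was 50.2 and 92.6 CPM in unmarked macrophages, 303 and 556 in type I marked, 208 and 495 in gamma-marked, and 1434 and 1275 in cells marked by both. Type I marked cells exceeded unmarked ones by 2.64 ± 0.239 (adjusted p = 8.51e-06; 2.95% of genes called), and gamma-marked cells by 2.31 ± 0.233 (adjusted p = 5.75e-05). Gamma-marked against type I marked cells had -0.33 ± 0.230 (adjusted p = 0.595). Cells marked by both, 1.68% and 2.16% of macrophages, held 27.8% and 14% of macrophage Cxcl10 UMIs, and unmarked cells 48.3% and 46.7%. Without the tumour block, which leaves the tumours' own difference in the error, the adjusted p of these Cxcl9 and Cxcl10 differences was 0.457 and 0.459 for gamma-marked, 0.123 (Cxcl10) for type I marked and 0.756 (Cxcl9) for gamma against type I.

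No difference in Cxcl16 passed in either state. It was at 735 and 633 CPM in unmarked, 776 and 636 in type I marked, 857 and 756 in gamma-marked and 602 and 627 in cells marked by both (0.10 ± 0.103 for type I, adjusted p = 0.777; 0.28 ± 0.102 for gamma, adjusted p = 0.173). The rest of the interferon pathway gave the background to these values. In gamma-marked cells, where 4.86% of all genes were called, 10 of 14 tested interferon gamma system genes rose and 0 fell, among them the costimulatory receptor Cd40 (1.52 ± 0.113) and Cd274, which encodes PD-L1 (1.30 ± 0.129). All 9 tested guanylate-binding and immunity-related GTPases, effectors of cell-autonomous defence, rose there, with a median of 2.13 against -0.01 over all genes, led by Gbp6 at 3.75, Gbp8 at 3.02 and Gbp4 at 2.86. In type I marked cells, where 2.95% of all genes were called, 7 of 7 tested type I genes rose, with a median of 3.59 (Oasl1 4.55, Usp18 4.31, Ifi44 4.26), as did 7 of 9 GTPases. The lists also crossed: 6 of 7 type I genes rose in gamma-marked cells, with a median of 1.30, and 6 of 14 interferon gamma system genes rose in type I marked cells. These lists are close kin of the marks that defined the states. Of 15 tested NF-kappaB genes, 2 rose in gamma-marked cells (Icam1, 0.86, and Tnfaip3, 0.46) and 1 in type I marked cells (Ccl4, 2.23). The chemokine Ccl5 rose in both, by 3.06 ± 0.283 in type I and 1.26 ± 0.267 in gamma-marked cells. Against type I marked cells, gamma-marked cells were higher in the transactivators Ciita (1.28 ± 0.162) and Irf1 (1.15 ± 0.135) and lower in all 7 tested type I genes, such as Irf7 (-2.75 ± 0.183).

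**Figure D4:**
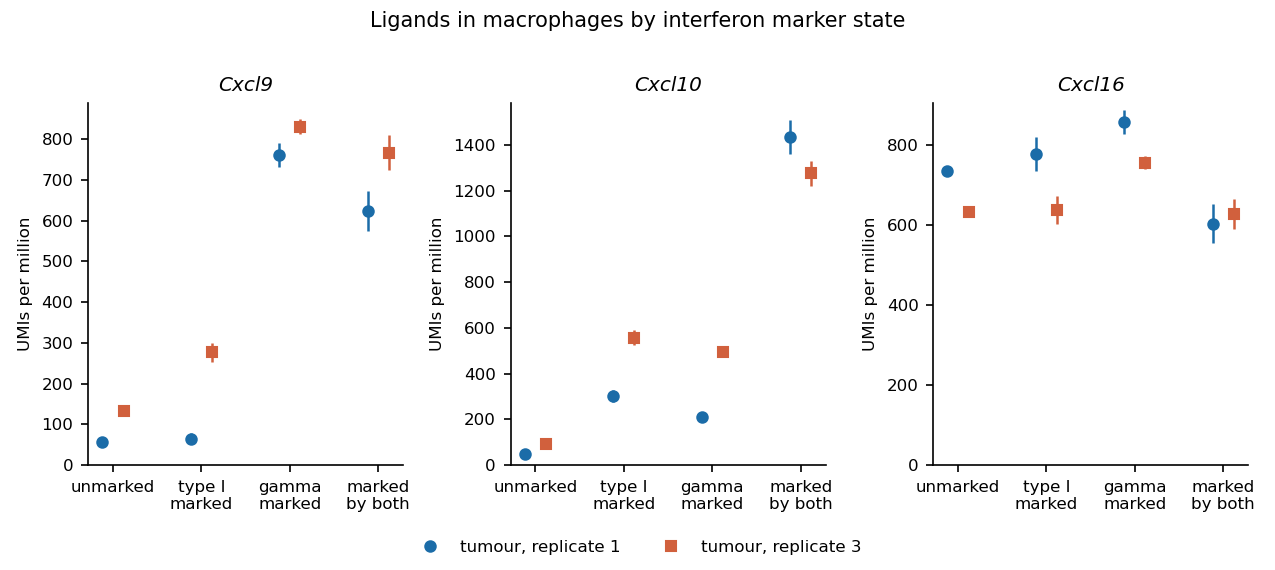
Cxcl9, Cxcl10 and Cxcl16 (CPM, linear axes from 0) in macrophages by interferon mark, a circle for replicate 1 and a square for replicate 3, with exact Poisson 95% intervals. Cxcl9 is at 760 and 830 in gamma-marked cells, and Cxcl10 at 1434 and 1275 in cells marked by both.

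Ifng, which encodes interferon gamma, was found in lymphocytes. It was at 108 and 210 CPM in CD8 T cells, 91.4 and 78.4 in conventional CD4 T cells, 26 and 157 in NK cells and 9.49 and 18.9 in regulatory T cells, and at 0.0877 and 0.338 in macrophages. Over all cells it was 2.22 CPM in replicate 1 and 9.81 in replicate 3, the tumour with the larger gamma-marked share and the higher Cxcl9, a relation that 2 tumours cannot test. Regulatory T cells had less Ifng than conventional CD4 T cells (-2.50 ± 0.537, adjusted p = 0.0176) and more Tap1, a peptide transporter gene of antigen presentation (1.08 ± 0.256), and Gbp3 (2.42 ± 0.503). In that comparison 2 of 14 GTPases rose and 0 fell, and 2.32% of all genes were called.

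Other genes of the receptor side were read from lists. Of the T-bet programme and residency genes, 14 of 18 tested rose and 1 fell in CD8 T cells against macrophages, where 39% of all genes were called, among them the checkpoint receptor Pdcd1 (8.68 ± 0.441) and the transcription factor Eomes (7.78 ± 0.598). Against NK cells, where 3.62% of all genes were called, 2 of 18 rose (Pdcd1, 6.04 ± 0.581, and the egress receptor S1pr1, 4.72 ± 1.09) and 2 fell, including Eomes (-1.86 ± 0.444). Regulatory against conventional CD4 T cells had higher Gzmb (granzyme B, 3.56 ± 0.414) and the epithelial-adhesion integrin gene Itgae (2.68 ± 0.335) and lower Tcf7 (-5.55 ± 0.620), a factor of naive and memory T cells. Of the ligand-processing and receptor-pathway genes, 4 rose and 4 fell of 17 tested in cDC1, 2 and 5 of 16 in cDC2, 5 and 5 of 17 in activated DCs, 6 and 2 of 16 in neutrophils and 3 and 9 of 16 in CD8 T cells, all against macrophages. In these comparisons, in the same order, 20.8%, 17.1%, 21.7%, 43.7% and 39% of all genes were called. Dpp4, the peptidase that trims CXCL9 and CXCL10, was higher than in macrophages in cDC1 (5.31 ± 0.289), cDC2 (5.34 ± 0.317) and activated DCs (5.35 ± 0.359), and Pf4, a platelet chemokine, was lower in these (-5.57 ± 0.547, -6.14 ± 0.533 and -5.82 ± 0.680). Il12b, a subunit of interleukin 12, was higher in activated DCs by 10.2 ± 0.605, at 746 and 804 CPM.

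No difference by spatial code passed in any of the 5 genes. Cells were ranked within each tumour by the share ZC1/(ZC1 + ZC5), the codes that both libraries carry. They were split into equal groups of lowest, middle and highest share. The labels do not say which code marks which region. Groups of the same name differed in share between the tumours. In macrophages the lowest and highest groups had median shares of 0.316 and 0.586 in replicate 1, and of 0.159 and 0.315 in replicate 3. In T and NK cells these were 0.376 and 0.822, and 0.133 and 0.418. Many cells had a share within 0.02 of a cut between groups. These were 582 of 2823 and 1161 of 3128 macrophages, and 53 of 523 and 239 of 945 T and NK cells. With such groups, a difference that did not pass cannot show that levels were alike over the codes. The remaining code of each library was not used. In replicate 3 this was ZC6, with 2228009 UMIs in cells against 365152 of ZC1 and 983677 of ZC5. In macrophages, Cxcl9 went from 98.8 (lowest) to 139 CPM (highest) in replicate 1 and from 292 to 186 in replicate 3, opposite directions, with a fitted difference of -0.12 ± 0.192 (adjusted p = 1.00). Cxcl10 also had opposite directions, 106 to 83.1 and 150 to 180 CPM, and Cxcl16 went from 772 to 704 and from 647 to 655. The gamma-marked share was 4.78%, 6.35% and 6.45% in the lowest, middle and highest groups of replicate 1 and 12.4%, 11.6% and 12.5% in replicate 3. In all, 0.0238% of genes were called (3 of 12624 by edgeR; 463 had an unadjusted p under 0.05).

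In T and NK cells, Cxcr3, Cxcr6 and Cxcl10 had the same direction in both tumours but did not pass. Cxcr6 went from 355 (lowest) to 265 CPM (highest) in replicate 1 and from 286 to 162 in replicate 3 (-0.57 ± 0.161, adjusted p = 0.579), Cxcr3 from 61.5 to 67.7 and 53.6 to 87.4 (0.53 ± 0.148, adjusted p = 0.547), and Cxcl10 from 43.1 to 64.4 and 58 to 82.9 (0.57 ± 0.145, adjusted p = 0.411), with 0.0427% of genes called (4 of 9368; 473 at an unadjusted p under 0.05). Only with no filter on low counts was Cxcr6 called (adjusted p = 0.00956), over a range of 0.00956 to 1.00. The makeup of these groups moved too: NK cells were 14.3% and 20.6% of the lowest and 19.5% and 19.7% of the highest groups, and CD8 T cells 5.71% and 27.3% against 6.9% and 18.1%. Within T cells alone, Cxcr6 was at 465 and 391 CPM in the lowest and 408 and 213 in the highest groups, and Cxcr3 at 83 and 70.1 against 99.9 and 106. Within regulatory T cells the direction of Cxcr6 was opposite in the tumours, from 324 to 606 CPM in replicate 1 and from 429 to 213 in replicate 3. Within CD8 T cells it went from 729 to 113 CPM in replicate 1 (10 and 12 cells) and from 393 to 248 in replicate 3 (86 and 57 cells).

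**Figure D5:**
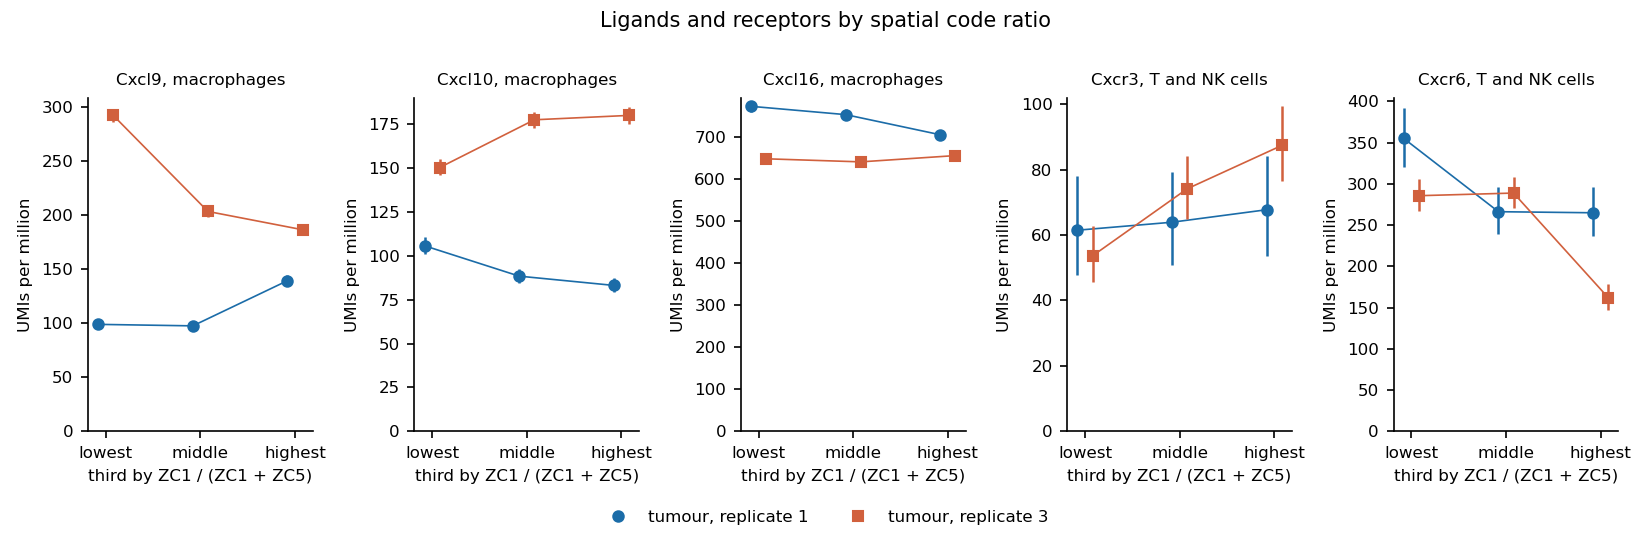
Levels (CPM, axes from 0) of the ligands in macrophages and the receptors in T and NK cells by group of ZC1/(ZC1 + ZC5), lowest to highest, for each tumour, with exact Poisson 95% intervals. Cxcl9 runs from 98.8 to 139 in replicate 1 and from 292 to 186 in replicate 3.

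The genes most like each member were found by Pearson's correlation of log2(CPM + 10) over 22 sums (11 classes in 2 tumours, which share their libraries), given as a description over 9173 genes. Cxcl9 was closest to Slamf8 (0.897), Pnp, Ly86, Gm6377 and Cebpa. Slamf8 was at 37.3 and 51 CPM in macrophages and at most 2.07 in T classes, whereas Pnp was at 142 and 202 CPM in macrophages and still at 54.2 and 73 in CD8 T cells. Cxcl10 had weaker likeness, to Mthfs (0.849), D1Ertd622e, Orai3, M6pr and Sod2. Its highest sum was neutrophils of replicate 3 (546 CPM), 29 cells with 40 of 58 Cxcl10 UMIs in 1 cell. Mthfs (151 CPM), D1Ertd622e (132), Orai3 (47.1) and Sod2 (245) were also highest there, and M6pr (160) was not. The weight of this sum in the likeness was not tested. Cxcl16 was closest to Tmem106a (0.968), Pltp, Gusb, Plekho1 and Mfsd12. Cxcr3 was closest to the costimulatory receptor gene Cd28 (0.976), Cd247, Grap, Slamf1 and Rora, and Cxcr6 to the T-lineage factor Bcl11b (0.986), Cd247, Ubash3a, Cd28 and Cd6. With Spearman's coefficient 3, 2, 2, 1 and 0 of these 5 were kept for Cxcl9, Cxcl10, Cxcl16, Cxcr3 and Cxcr6. Between the members, Cxcr3 and Cxcr6 had 0.95, Cxcl9 and Cxcl16 0.846, and Cxcl9 and Cxcl10 0.6. With Spearman's coefficient these were 0.721, 0.797 and 0.604. The 11 classes leave out pDCs and cDC1, which had Cxcr3 with little or no Cxcr6. In pDCs Cxcr3 was at 81.35 and 174.8 CPM and Cxcr6 at 0 and 0.427. T cells with NK markers and gamma delta T cells, also left out, had both receptors, and activated DCs neither. The likeness of Cxcr3 to Cxcr6 and to T cell genes does not cover these classes.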

How the data were processed

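Raw gene-by-barcode UMI counts were deposited by the authors for both tumours, with 3 spatial codes per library; Cell Ranger 4.0 and mm10 are named in the submitters' processing notes, and the sources used here do not give further steps. Replicate 1 held 89040909 gene UMIs and replicate 3 170328781. Scrublet (scanpy 1.11.5) called 0 doublets in either library; its calls were not relied on, and removing the 186 and 363 highest scores was tried as an alternative. Classes were gated on marker UMIs per 10000, with thresholds set after the marker distributions were seen; gate genes were not tested. The genes described, the lists and the comparisons were chosen with earlier results of these data known.

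UMI counts were summed by class and tumour and tested with edgeR 4.0.16 (R 4.3.3; glmQLFit, TMM, filterByExpr, tumour as block because both classes come from the same tumour, Benjamini-Hochberg at 0.05), after a check on simulated data. There were 14 comparisons and 1 added after seeing levels. The planned minimum was 20 cells per class; cDC1, activated DCs and pDCs were fitted at a minimum of 10, chosen after class sizes were seen. Named genes were the 5 genes, the 5 most like each, and up to 3 called genes with the largest change per list and comparison. Lists lacked genes not analysed here, and some list genes are not reported here. DESeq2 1.42.0, no count filter, no block, other cell filters, stricter gates and 10% free RNA subtraction were alternatives. Intervals are 95% and cover counting error only; a count of 0 was given a limit of 3 counts.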

Additional observations from a re-analysis of the deposited data

Results flagged for a closer look

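Part of each gene's UMIs lay in barcodes that passed the cell filters but met no class gate (628 in replicate 1 and 957 in replicate 3), which the comparisons did not use. For Cxcl9 this was 10.02% of its UMIs in replicate 1 and 16.29% in replicate 3, for Cxcl10 11.29% and 14.89%, and for Cxcl16 12.8% and 14.4%. For Cxcr3 it was 25.24% and 12.85%, and for Cxcr6 26.96% and 18.09%. These barcodes had Cxcl16 at 547 and 424 CPM and Cxcr6 at 35.1 and 18.6 CPM.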

How the results depend on the processing

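Counts of genes called moved by over 1.5 times in 36 recomputations and by less in 104. Among the 5 genes described here, no direction of a called difference reversed. Directions of the other genes were not compared between settings. Without the tumour block (no replicate block) the counts were 545 in place of 1766 (monocytes), 1024 of 1897 (cDC2), 224 of 402 (CD8 T against NK), 2 of 52 (CD8 against conventional CD4 T), 111 of 258 (regulatory T), 61 of 291 (type I marked), 0 of 480 (gamma marked), 7 of 264 (gamma against type I marked), 0 of 3 (ZC1, macrophages) and 0 of 4 (ZC1, T and NK cells). With free RNA subtracted they were 987, 259, 12 and 132 for monocytes, CD8 T against NK, CD8 against conventional CD4 T and regulatory T, and 0 and 0 for the codes. With no filter they were 697, 248, 528, 495, 791 and 518 for CD8 T against NK, CD8 against conventional CD4 T, regulatory T, type I, gamma, and gamma against type I, and 18 and 57 for the codes. DESeq2 gave 115, 415 and 277 for CD8 against conventional CD4 T, regulatory T and gamma, and 6 and 0 for the codes. At most 5% mitochondrial UMIs gave 29 for CD8 against conventional CD4 T, and 0 and 39 for the codes. For the codes, a split into 2 equal groups gave 21 and 24, the stricter gate 1 (macrophages) and at least 3000 UMIs 12 (T and NK cells). Of log2 fold changes of the 5 genes, 539 kept their side of the threshold, 22 lost it (11 of them without the block) and 29 gained it. With 1 tumour left out 35 fold changes were labelled moved and 72 were not. The margin was the SD of the 2 single-tumour values themselves, and a value from 1 tumour alone counted as moved. These counts therefore cannot show whether the tumours were alike. Cxcl9 in monocytes against macrophages had opposite signs in the tumours and still counted as not moved. Of shares of cells with a UMI, 56 moved with the thinning depth or none and 16 did not. The cause was not tested. No value could be had for the stricter gate in both conventional CD4 T comparisons, for at least 3000 UMIs in neutrophils, for 5% mitochondrial UMIs in pDCs, or at 20 cells for cDC1, activated DCs and pDCs. In replicate 1, cDC1 were 14 cells, activated DCs 15 and pDCs 11.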
